A study of Mus musculus with 18 samples.

Results

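Collagen genes encode the chains of the collagens, proteins of the extracellular matrix that share a triple helix. They were taken as every gene whose name in the count table has the form Col, a type number, a and a chain number, which gave 44 of 25918 gene names. By the kind of structure their products build, 11 are fibrillar, 6 encode type IV collagen of basement membranes, 9 belong to the networks and beaded filaments of types VI, VIII and X, and 9 are fibril-associated collagens, called FACIT. A further 3 belong to the basement membrane zone (types VII, XV and XVIII), 4 are transmembrane collagens and 2 (Col26a1 and Col28a1) were grouped as other.

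Messenger RNA was sequenced in BALB/c mice, in 18 libraries and 6 groups of 3, from cortex and from a bone of the skull, the interparietal bone. The cortex, called brain here, was taken 6 days and 2 days after ischemic injury and from controls. The skull was taken 4 days and 2 days after the injury and from controls. The labels name no allele or agent, and the harvested tissue held both the ischemic region and its surroundings. Whether libraries come from separate animals is not stated, and p-values therefore measure the spread between these libraries, which may be technical.

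Collagen chains are made in the endoplasmic reticulum, where prolines and lysines are hydroxylated and the chains wind into the triple helix with the help of the chaperone Serpinh1. Outside the cell the propeptides of fibrillar collagens are trimmed and lysyl oxidases crosslink the molecules. Type I collagen, made of Col1a1 and Col1a2 chains, is the main protein of bone. In the brain, collagens are found mainly in the basement membranes of vessels and in the meninges, and some transmembrane and fibril-associated collagens are made by neurons. Fibrillar collagens are known for their place in scars.

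Total counts per library lay between 13005050 and 27654269. Levels are given, from the deposited gene counts, as normalised read counts (CPM), scaled within each tissue, and a gene was called changed at an adjusted p below 0.05 in edgeR's quasi-likelihood test. In bulk tissue, fewer cells of a type and less RNA per cell cannot be told apart. Neuron markers summed to 11282, 9925 and 10661 CPM at day 6, 7805, 7303 and 7916 CPM at day 2 and 10044, 12178 and 12987 CPM in controls of brain. Markers of skeletal muscle, 9 genes, summed to 1390.2, 102 and 88.2 CPM at day 4, 22.3, 235 and 968 CPM at day 2 and 4124, 779 and 2841 CPM in controls of skull, so bone libraries differed in muscle RNA. Choroid plexus markers, 7 genes led by Ttr, summed to 3068, 1711 and 699.6 CPM at day 4, 406, 8265 and 1868 CPM at day 2 and 284, 338 and 297 CPM in controls of skull, highest in library 2 of day 2. Osteoblast and osteocyte markers, which define bone, summed to 5868, 9219 and 7476 CPM at day 4, 18091, 16196 and 20878 CPM at day 2 and 4389, 3165 and 3922 CPM in controls of skull. At day 2 the sum does not stand for the whole list, which includes Spp1, a gene that macrophages also express. Of 10 tested markers 3 rose and 2 fell at day 2, with a median log2 fold change of 0.42. Brain control 1 had a fibroblast and meninges sum above the other controls, at 1220.3, 1287 and 1262 CPM at day 6, 1050.0, 1203 and 780.4 CPM at day 2 and 1444, 889 and 835 CPM in controls of brain.

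The genes Col4a1 and Col4a2, both on chromosome 8, are shown first because they lie head to head, with start sites 21 bp apart, and rose in each injured group against its control. Their promoter windows, 250 bases before to 50 after the start, are from RefSeq (GRCm38.p6), and the 78 bases in capitals are the stretch that both windows share, read on opposite strands. Col4a1 is chr8:11312777-11313076, minus strand, and Col4a2 is chr8:11312555-11312854, plus strand.
Col4a1: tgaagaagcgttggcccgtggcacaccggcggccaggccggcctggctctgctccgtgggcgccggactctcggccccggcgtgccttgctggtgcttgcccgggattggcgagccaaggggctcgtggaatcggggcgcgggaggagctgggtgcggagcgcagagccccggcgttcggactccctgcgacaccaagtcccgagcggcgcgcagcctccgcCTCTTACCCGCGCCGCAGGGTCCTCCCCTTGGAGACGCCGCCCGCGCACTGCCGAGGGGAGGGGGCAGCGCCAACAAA
Col4a2: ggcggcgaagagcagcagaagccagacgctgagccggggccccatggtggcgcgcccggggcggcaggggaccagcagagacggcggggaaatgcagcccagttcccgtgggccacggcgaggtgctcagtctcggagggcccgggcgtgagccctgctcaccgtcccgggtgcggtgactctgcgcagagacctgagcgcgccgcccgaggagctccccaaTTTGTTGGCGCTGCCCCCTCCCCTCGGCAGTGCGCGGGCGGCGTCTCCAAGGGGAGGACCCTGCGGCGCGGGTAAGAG
The windows of Col1a2 (chr6:4505368-4505667, plus strand) and Col3a1 (chr1:45311288-45311587, plus strand) are shown because these genes had among the largest rises in brain. Capitals mark the CCAAT box, the TATA box (TATAAA) and the GC box (GGGCGG), searched on both strands. The matches do not overlap.
Col1a2: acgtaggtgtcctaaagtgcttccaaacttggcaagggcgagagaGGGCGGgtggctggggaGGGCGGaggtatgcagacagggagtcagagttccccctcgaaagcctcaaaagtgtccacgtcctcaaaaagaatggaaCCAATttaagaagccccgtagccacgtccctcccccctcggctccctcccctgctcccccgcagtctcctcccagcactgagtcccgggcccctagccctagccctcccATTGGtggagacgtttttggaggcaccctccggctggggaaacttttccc
Col3a1: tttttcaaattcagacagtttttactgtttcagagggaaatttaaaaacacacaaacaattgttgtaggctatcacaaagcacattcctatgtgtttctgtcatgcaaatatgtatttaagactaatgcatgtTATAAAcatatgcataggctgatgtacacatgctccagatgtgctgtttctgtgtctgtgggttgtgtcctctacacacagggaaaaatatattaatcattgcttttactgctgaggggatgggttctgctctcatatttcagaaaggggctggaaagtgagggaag
Among all 32851 RefSeq promoter windows of the same length, 37.4% held the CCAAT box, 13.6% the TATA box and 35.7% the GC box. Among the 38 windows found for 35 collagen genes the shares were 34.2%, 13.2% and 60.5%. A match is a description of the letters, and it does not show that a factor binds. Of the other type IV pairs, Col4a3 and Col4a4 start 72 bp apart on chromosome 1, and Col4a5 and Col4a6 start 1309 bp apart on chromosome X.

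Of all brain counts, collagen genes held 0.106, 0.286 and 0.20% at day 6, 0.0919, 0.135 and 0.0993% at day 2 and 0.0602, 0.052 and 0.0516% in controls. Of all skull counts they held 13.7, 17.7 and 16.6% at day 4, 11, 10.2 and 9.26% at day 2 and 12.2, 7.76 and 10.7% in controls. Every brain library taken after injury lay above every brain control. In skull the 3 libraries of day 4 lay above all others, while day 2 overlapped the controls. Fibrillar collagens made up most of this share in skull, and skull control 2 had the lowest share.

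**Figure D1:**
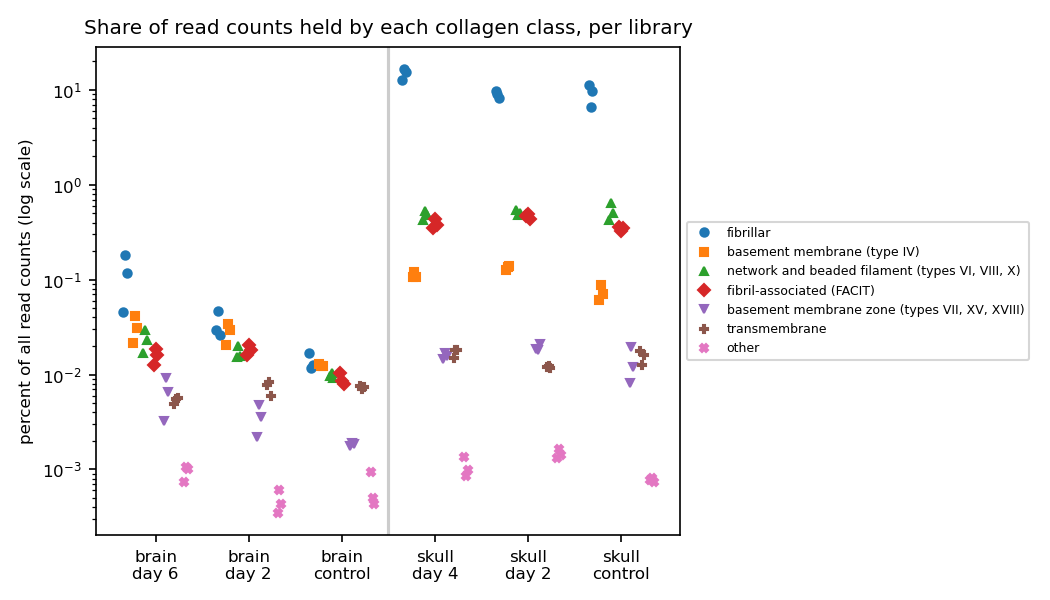
Percent of all read counts held by each collagen class (y axis, log scale) in every library, by group (x axis); each marker is 1 library. The fibrillar class lies highest in skull. In brain its lowest injured library is library 3 of day 2 at 0.0264%, above the controls at 0.0116% to 0.0168%. Injured brain libraries also lie above the controls in the type IV, network, fibril-associated and basement membrane zone classes.

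Between the control tissues, most collagen genes were lower in brain than in skull. Of 43 tested, 34 were lower in brain controls, against 36.4% of all genes, and 2 were higher, against 34.5% of all genes. The median log2 difference was -3.14 for the collagen genes and -0.03 for all genes. The 11 fibrillar genes were all lower in brain, led by Col1a1, with a log2 difference of -11.52 ± 0.51 (SE), adjusted p = 4.48e-06. Type IV genes were closer between the tissues, with Col4a1 at -2.96 (adjusted p = 5.29e-06) and Col4a2 at -1.93 (adjusted p = 5.47e-06). The 2 genes that were higher in brain were Col19a1, a fibril-associated collagen made by neurons in mice, at 7.43 (adjusted p = 3.29e-06), and Col25a1, a neuronal transmembrane collagen, at 1.19 (adjusted p = 0.0273). Col19a1 had only 6 counts in the skull controls together, and its ratio of 184 has a counting interval of 84.5 to 503 (95%, counting error only). The higher call of Col25a1 was lost without brain control 2 or 3 or skull control 3 (adjusted p up to 0.0848), which leaves 1 gene called higher. Col10a1, the collagen of hypertrophic cartilage, had too few reads to be tested between the controls, and the 7 genes that were tested and not called were Col4a6, Col6a4, Col9a2, Col9a3, Col17a1, Col23a1 and Col26a1.

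Divided by transcript length, the leading collagen genes of brain controls were Col25a1 at 20.9 ± 4.52 CPM per kb, Col6a1 at 15.3 ± 2.32 CPM per kb and Col4a2 at 10.2 ± 0.902 CPM per kb (SD, n = 3). At day 6 after injury the order in brain was led by Col1a2 at 61.2 ± 37.9 CPM per kb, Col3a1 at 57.5 ± 40.5 CPM per kb and Col1a1 at 52.3 ± 32.1 CPM per kb (SD, n = 3). Col1a2 lay above Col1a1 in each of the 3 libraries of day 6, while the place of Col3a1 differed between libraries. In skull controls Col1a2 led with 7058 ± 2507 CPM per kb, before Col1a1 with 5058 ± 1581 CPM per kb and Col3a1 with 2695 ± 428 CPM per kb. The same order of Col1a2 and Col1a1 held within each of the 3 skull controls.

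**Figure D2:**
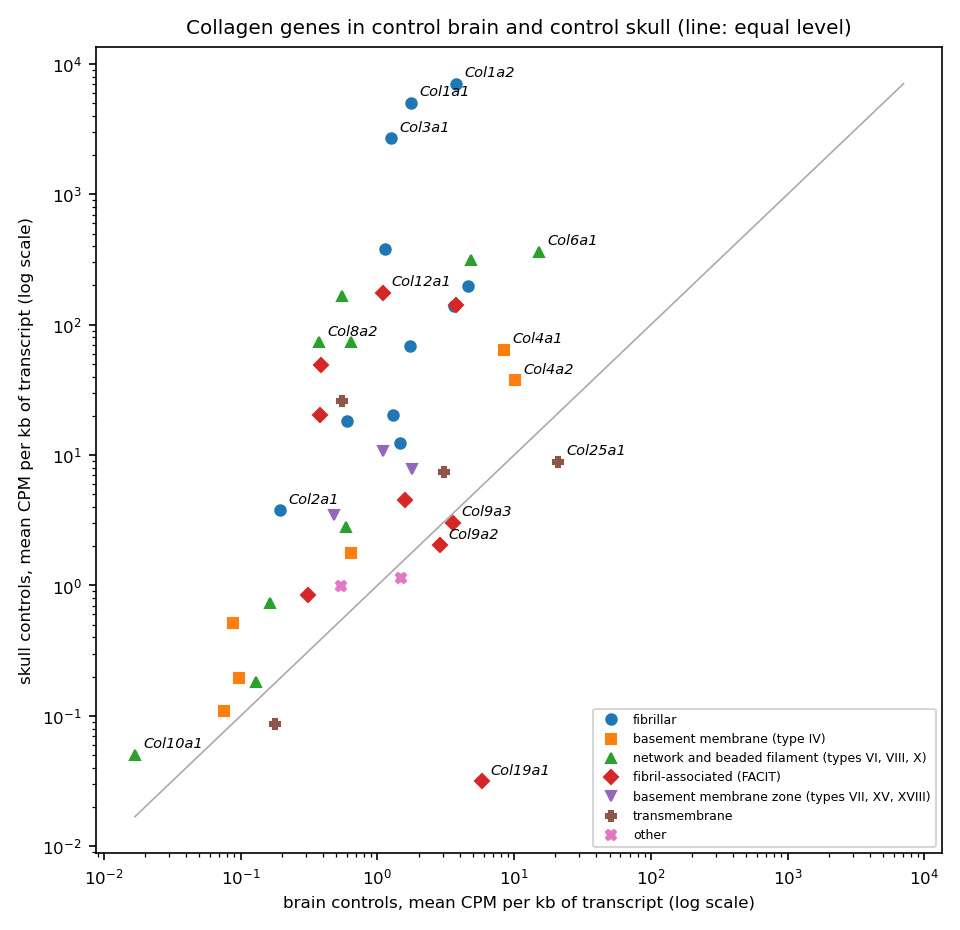
Mean CPM per kb of transcript of each collagen gene in brain controls (x axis) and skull controls (y axis), both log scales, with the class as the marker and a line of equal level. Most genes lie above the line, and Col19a1, Col25a1, Col17a1, Col26a1, Col9a2 and Col9a3 lie below it, of which Col19a1 and Col25a1 passed the test.

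In brain, 22 of 44 collagen genes rose at day 6, against 7.93% of all genes, and 13 at day 2, against 14.7%. After Col10a1, the fibrillar genes Col3a1, Col1a1 and Col1a2 had the largest log2 fold changes of all collagen genes at day 6. Of the fibrillar genes at day 6, 6 of 11 rose and 0 fell, with a median log2 fold change of 1.04. At day 2, 2 of 11 rose and 1 fell, near the shares of all genes, with a median of 0.92. At day 6, 2 of the 44 collagen genes fell, against 2.39% of all genes, with a median of 0.98 for the collagen genes and -0.02 for all genes. At day 2, 3 fell, against 9.99%, with a median of 0.61 and 0.00 for all genes. The 2 days were compared with the same controls. The count of rises at day 6 was 12 without control 3 and 14 without control 2, and that at day 2 was 5 without control 3, 6 without control 2 and 7 without library 2 of day 2. The count of falls at day 6 was 1 without library 1 or 2 of day 6 or control 2 or 3. Of the 24 calls at day 6, 13 were kept without any 1 library, and of the 16 at day 2, 8 were kept.

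Col1a1 (chr11:94936224-94953042, plus strand, GRCm38) and Col1a2 (chr6:4504814-4541544, plus strand) encode the chains of type I collagen. Col1a1 had 108, 486 and 336 CPM at day 6, 31.3, 81.4 and 27.9 CPM at day 2 and 14.6, 7.33 and 9.49 CPM in controls. Col1a2 had 120.4, 525 and 336 CPM at day 6, 55.8, 108 and 43.3 CPM at day 2 and 28.6, 14.7 and 17.2 CPM in controls. All 3 libraries of day 6 lay above all others in both genes, and within day 6 library 1 was the lowest. The log2 fold change at day 6 was 4.89 ± 0.78 (SE), adjusted p = 0.0115 for Col1a1 and 4.02 ± 0.69 (SE), adjusted p = 0.0149 for Col1a2. At day 2 it was 2.17 (adjusted p = 0.0779) for Col1a1 and 1.78 (adjusted p = 0.0983) for Col1a2, and neither passed the test although the groups did not overlap. The day 6 call of Col1a1 was lost without control 2 or 3 (adjusted p up to 0.0635), and that of Col1a2 without control 2 or 3 (adjusted p up to 0.0751). Without library 1 of day 6 the Col1a1 value was 5.30 (adjusted p = 0.00385). Without control 1, which had the highest meningeal marker sum, it was 5.23 (adjusted p = 0.0352).

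Col3a1 (chr1:45311538-45349706, plus strand) encodes the chain of type III collagen, found with type I in vessel walls and healing wounds. It had 93.1, 543 and 323 CPM at day 6, 49.6, 96.9 and 38.4 CPM at day 2 and 8.88, 4.72 and 7.54 CPM in controls. Each injured library lay above each control. The log2 fold change was 5.51 ± 0.82 (SE), adjusted p = 0.00875 at day 6 and 3.13 ± 0.76 (SE), adjusted p = 0.0274 at day 2. The day 6 call was lost without control 3 (adjusted p up to 0.0503), and the day 2 call without day 2 library 2 or control 1, 2 or 3 (adjusted p up to 0.0981). In the annotation an exon of Gm47302 on the same strand shares up to 141 bp with Col3a1, so some reads could belong to either gene.

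Type V and XI collagens set the start and width of collagen fibrils, and their genes moved in different ways. Col5a3 had 7.16, 17.4 and 12.5 CPM at day 6, 15.4, 28 and 21.5 CPM at day 2 and 4.36, 3.79 and 2.79 CPM in controls, and all injured libraries lay above the controls. Its log2 fold change was 1.76 ± 0.33 (SE), adjusted p = 0.00564 at day 6 and 2.57 ± 0.33 (SE), adjusted p = 2.27e-04 at day 2. Col5a2 had 16.5, 75.6 and 49 CPM at day 6, 22.6, 31.6 and 16.7 CPM at day 2 and 12.8, 5.62 and 4.29 CPM in controls. Its log2 fold change at day 6 was 2.64 (adjusted p = 0.0555) and did not pass the test. Col5a1 had 44.5, 74 and 61 CPM at day 6, 48, 43 and 28.3 CPM at day 2 and 44.6, 22.9 and 23.7 CPM in controls. Control 1 overlapped the injured libraries, and the day 6 value was 0.98 (adjusted p = 0.101). Col11a2 (chr17:34039437-34066685, plus strand) had 38.9, 49.6 and 50.5 CPM at day 6, 12.5, 15.1 and 19.2 CPM at day 2 and 23, 25.3 and 25.9 CPM in controls. Day 6 lay above and day 2 below the controls, and no groups overlapped. It fell at day 2, with -0.66 ± 0.16 (SE), adjusted p = 0.00678, and rose at day 6, with 0.90 ± 0.15 (SE), adjusted p = 0.00185. Col27a1, a fibrillar collagen known from cartilage, had 16.1, 23 and 22.7 CPM at day 6, 9.2, 20.6 and 13.9 CPM at day 2 and 11, 10.3 and 8.62 CPM in controls. Col27a1 rose at day 6 with 1.04 ± 0.25 (SE), adjusted p = 0.0189. That call was lost without day 6 library 2 or 3 or control 2 or 3 (adjusted p up to 0.0871). Col11a1, Col24a1 and Col2a1, the main collagen of cartilage, did not pass the test on either day. Col2a1 had 2.57, 1.24 and 1.37 CPM at day 6, 1.39, 0.871 and 3.4 CPM at day 2 and 1.26, 0.967 and 0.75 CPM in controls.

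Beside these rises, all 8 macrophage and microglia markers rose on both days. Their sum was 944, 2605 and 1798 CPM at day 6, 582, 859 and 711 CPM at day 2 and 207, 179.7 and 182 CPM in controls, and within day 6 it had the order of Col1a1 across the 3 libraries. The sums of fibroblast and meninges, endothelial and mural markers had the same order within day 6, and the neuron sum had the reverse order. Of 13 tested fibroblast and meninges markers, 5 rose at day 6 and 4 at day 2, with the sums given above. Of 7 tested osteoblast markers 1 rose, Spp1, which macrophages also make, with 742, 4023 and 2324 CPM at day 6, 469, 718 and 814 CPM at day 2 and 3.39, 2.9 and 3.66 CPM in controls. The defining osteoblast marker Ibsp had 0, 0.137 and 0.404 CPM at day 6, 0.166, 0.41 and 0.27 CPM at day 2 and 0.586, 0 and 0.333 CPM in controls, and Bglap2 had no count in the 3 libraries of day 6. Their part in the collagen values was not tested.

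**Figure D3:**
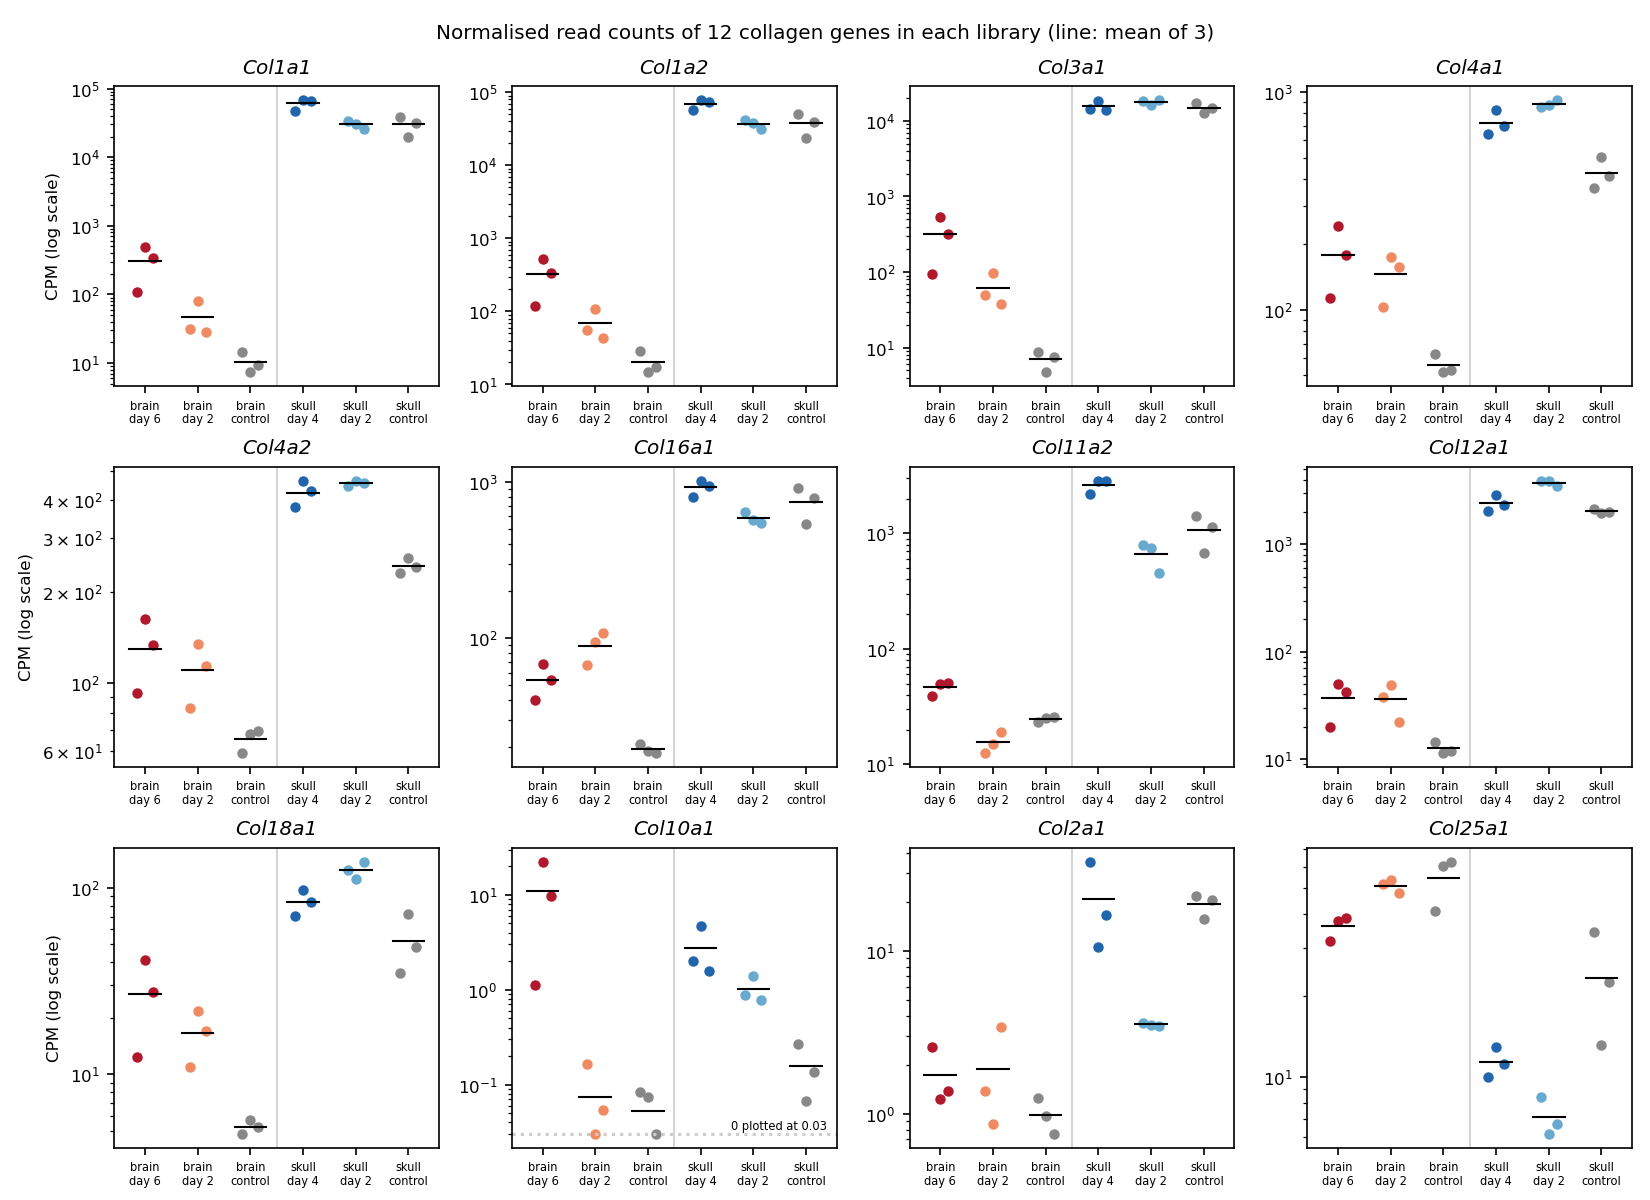
CPM of 12 collagen genes (y axes, log scale) in each library by group (x axes), with brain left and skull right of the grey line; points are libraries and black lines are group means of 3, and values of 0 in Col10a1 are drawn on the dotted line. Injured brain libraries lie above the controls in Col1a1, Col1a2, Col3a1, Col4a1, Col4a2, Col16a1, Col12a1 and Col18a1, and Col2a1 in skull is lowest at day 2.

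Basement membrane collagen rose in brain on both days. Of the 6 type IV genes 3 rose at day 6 and 4 at day 2, and 0 fell, with medians of 0.93 and 0.77. Col4a1 and Col4a2 (chr8:11198423-11312826, minus strand and chr8:11312805-11449287, plus strand) encode the chains of the most widespread type IV collagen, found around vessels. Col4a1 had 113, 243 and 179 CPM at day 6, 103, 176 and 158 CPM at day 2 and 62.6, 51.7 and 52.7 CPM in controls. Col4a2 had 93.1, 163 and 134 CPM at day 6, 83.1, 135 and 114 CPM at day 2 and 58.9, 67.9 and 69.7 CPM in controls. In both genes the injured libraries lay above the controls. Col4a1 had a log2 fold change of 1.68 ± 0.29 (SE), adjusted p = 0.00866 at day 6 and 1.39 ± 0.29 (SE), adjusted p = 0.00966 at day 2. For Col4a2 it was 0.99 ± 0.22 (SE), adjusted p = 0.0168 at day 6 and 0.76 ± 0.21 (SE), adjusted p = 0.0284 at day 2. The day 6 call of Col4a1 was lost without control 3 (adjusted p up to 0.0509), while its day 2 call kept an adjusted p of at most 0.0484 without any 1 library. The Col4a2 call at day 6 was lost without day 6 library 2 or 3 or control 2 or 3 (adjusted p up to 0.059). At day 2 it was lost without day 2 library 2 or 3 or control 1, 2 or 3 (adjusted p up to 0.105). Exons of the head-to-head genes share 22 bp, so few reads could be exchanged between them.

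Among the other type IV chains, Col4a5 had 8.81, 10.5 and 9.13 CPM at day 6, 7.65, 7.23 and 6.69 CPM at day 2 and 5.32, 3.72 and 3.46 CPM in controls. Col4a5 rose with 1.19 ± 0.21 (SE), adjusted p = 0.00238 at day 6 and 0.79 ± 0.21 (SE), adjusted p = 0.0141 at day 2. The 3 groups did not overlap, with day 6 highest, and the day 2 call was lost without control 2 or 3 (adjusted p up to 0.0692). Col4a4 rose at day 2 with 1.10 ± 0.36 (SE), adjusted p = 0.0393 at levels of 1.61 to 2.64 CPM, against 0.922 to 1.04 CPM in controls. The Col4a4 call was lost without day 2 library 2 or 3 or control 1, 2 or 3 (adjusted p up to 0.162). Col4a3 and Col4a6 stayed under 2 CPM in every brain library and did not pass the test. Of 10 endothelial markers, 6 rose at day 6 and 8 at day 2 against controls. Their sums were 306, 386 and 356 CPM at day 6, 343, 534 and 482 CPM at day 2 and 225, 245 and 241 CPM in controls. At day 6 against day 2, 0 endothelial markers were higher and 2 were lower, with a median log2 fold change of -0.24. In the same comparison 0 type IV genes were called, with a median of 0.35. Mural cell markers, of which 2 of 10 tested rose on each day, summed to 365, 467 and 423 CPM at day 6, 300.0, 406 and 404 CPM at day 2 and 284, 302 and 295 CPM in controls. The part of these cells in the type IV values was not tested.

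Type VI collagen forms beaded filaments near basement membranes. Col6a1 had 94.7, 129 and 115 CPM at day 6, 83.2, 102 and 87.8 CPM at day 2 and 51.7, 67.4 and 68.9 CPM in controls. Col6a2 had 38.9, 68.5 and 60.4 CPM at day 6, 30.6, 43.9 and 29.4 CPM at day 2 and 23.5, 20 and 13.6 CPM in controls. Injured libraries lay above the controls in both. Col6a1 rose with 0.85 ± 0.14 (SE), adjusted p = 0.00135 at day 6 and 0.54 ± 0.14 (SE), adjusted p = 0.0103 at day 2, and Col6a2 with 1.55 ± 0.26 (SE), adjusted p = 0.00476 at day 6 and 0.86 ± 0.26 (SE), adjusted p = 0.0373 at day 2. Col6a3, the third chain of the same molecule, had 11, 32.4 and 20.7 CPM at day 6, 5.71, 9.33 and 5.12 CPM at day 2 and 5.91, 5.32 and 3.66 CPM in controls. Col6a3 rose at day 6 with 2.11 ± 0.38 (SE), adjusted p = 0.00594, and its day 2 value of 0.44 (adjusted p = 0.474) did not pass the test. Col6a6 had 4.58, 5.4 and 5.25 CPM at day 6, 2.77, 4.31 and 4.21 CPM at day 2 and 1.42, 1.23 and 1.67 CPM in controls. Col6a6 rose on both days, with 1.82 (adjusted p = 8.40e-04) at day 6 and 1.39 (adjusted p = 0.00215) at day 2. Col6a5 had 5.15, 7.23 and 6.54 CPM at day 6, 8.87, 7.33 and 14.9 CPM at day 2 and 5.24, 7.55 and 3.54 CPM in controls. Day 2 and controls overlapped, and Col6a5 was called higher at day 2 with 0.93 (adjusted p = 0.0415). The day 2 call was lost for Col6a2 without day 6 library 3 or day 2 library 1 or 2 or control 2 or 3 (adjusted p up to 0.138). For Col6a5 it was lost without day 6 library 2 or 3 or day 2 library 3 or control 1 or 3 (adjusted p up to 0.214). Over the 9 network and beaded filament genes, 6 rose at day 6 and 4 at day 2, with medians of 1.66 and 0.86.

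Col8a1, a chain of the short-chain collagen of vessel walls, had 7.78, 31.5 and 20.8 CPM at day 6, 9.97, 14.4 and 7.06 CPM at day 2 and 4.86, 1.9 and 3.12 CPM in controls. Col8a1 rose at day 6 with 2.61 ± 0.56 (SE), adjusted p = 0.0217. That call was lost without day 6 library 3 or control 2 or 3 (adjusted p up to 0.0969). Col10a1 (chr10:34389981-34397085, plus strand) had 1.13, 22.4 and 9.7 CPM at day 6, 0.166, 0 and 0.0539 CPM at day 2 and 0.0838, 0.0744 and 0 CPM in controls. It was near the lower limit of detection in all libraries but those of day 6, where libraries 2 and 3 were far above library 1. With 631 counts at day 6 and 4 in the controls, its ratio was 219.9 with a counting interval of 85.5 to 810 (95%, counting error only). The fitted log2 fold change was 7.55 ± 1.36 (SE), adjusted p = 0.0104, and the call was lost without control 1, 2 or 3 (adjusted p up to 0.0618). Of 5 tested cartilage markers in brain, 1 rose on each day and 0 fell, Comp at day 6 and Sox9 at day 2, with medians of 0.29 at day 6 and 0.67 at day 2. Between the control tissues, 2 of 5 tested markers of this list were higher in brain than in skull, and 3 were lower. The summed level of the list was 83.2, 86.3 and 75.9 CPM at day 6, 89.2, 76.3 and 74.3 CPM at day 2 and 80.8, 68.5 and 63.5 CPM in controls. Its defining marker Matn1 had 0.772, 0.0458 and 0.242 CPM at day 6, 0.277, 0.205 and 0.0539 CPM at day 2 and 0.0838, 0.298 and 0.375 CPM in controls, and the part of cartilage cells in the Col10a1 values was not tested.

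Fibril-associated collagens, which coat fibrils made by others, had calls in both directions. Of 9 genes 5 rose and 1 fell at day 6, against 7.93% and 2.39% of all genes. At day 2, 2 rose and 2 fell, near the 14.7% and 9.99% of all genes. Col16a1 (chr4:130047840-130099283, plus strand) had 40.4, 68.5 and 53.8 CPM at day 6, 67.6, 94.3 and 107 CPM at day 2 and 21.1, 19 and 18.4 CPM in controls, and each injured library lay above each control, while day 6 and day 2 overlapped. It rose with 1.48 ± 0.20 (SE), adjusted p = 0.00123 at day 6 and 2.20 ± 0.21 (SE), adjusted p = 4.26e-05 at day 2, and its adjusted p without any 1 library was at most 0.0101 at day 6 and 5.99e-04 at day 2. Col12a1, which binds type I fibrils, had 19.7, 50 and 42.3 CPM at day 6, 38.2, 48.5 and 22.3 CPM at day 2 and 14.5, 11.3 and 11.9 CPM in controls. It rose with 1.57 (adjusted p = 0.0385) at day 6 and 1.53 (adjusted p = 0.0216) at day 2. Each injured library lay above each control, while day 6 and day 2 overlapped. The call was lost without day 6 library 2 or 3 or day 2 library 1 or control 1, 2 or 3 (adjusted p up to 0.138) at day 6. At day 2 it was lost without day 2 library 1 or 2 or control 2 or 3 (adjusted p up to 0.0858). Col14a1, its close relative, had 4.74, 11.5 and 9.37 CPM at day 6, 4.6, 6.51 and 2.64 CPM at day 2 and 3.18, 1.49 and 1.87 CPM in controls. Col14a1 rose at day 6 with 1.97 ± 0.41 (SE), adjusted p = 0.0088.

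Type IX collagen sits on cartilage fibrils, and 2 of its 3 chains rose in brain at day 6. Col9a3 had 22.9, 24.9 and 24.6 CPM at day 6, 8.03, 15 and 9.71 CPM at day 2 and 12.5, 10.9 and 9.04 CPM in controls, with day 6 above all others, and rose with 1.16 ± 0.21 (SE), adjusted p = 0.0025. Its exons share up to 234 bp with Tcfl5 on the opposite strand, and the strand setting of the counts is not given in the sources used here. Col9a1 was low, at 2.42 to 3.07 CPM at day 6, 0.332 to 0.377 CPM at day 2 and 1.04 to 1.38 CPM in controls. Its log2 fold change was 1.23 (adjusted p = 0.0316) at day 6, a rise, and -1.72 (adjusted p = 0.00567) at day 2, a fall. The day 6 call of Col9a1 was lost without day 6 library 1, 2 or 3 or control 1, 2 or 3 (adjusted p up to 0.133). Col19a1 (chr1:24261890-24587472, minus strand) had 11.8, 8.24 and 10.3 CPM at day 6, 16.2, 7.23 and 13.6 CPM at day 2 and 25.6, 24.6 and 24.7 CPM in controls, and every injured library lay below the controls. It fell with -1.31 ± 0.24 (SE), adjusted p = 0.00374 at day 6 and -1.02 ± 0.24 (SE), adjusted p = 0.00704 at day 2, and no left-out library ended either call.

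Of the basement membrane zone collagens, Col18a1 (chr10:77052178-77166548, minus strand), whose end fragment is endostatin, had 12.4, 40.9 and 27.8 CPM at day 6, 10.9, 21.8 and 17 CPM at day 2 and 4.78, 5.73 and 5.21 CPM in controls. It rose with 2.37 ± 0.42 (SE), adjusted p = 0.00758 at day 6 and 1.66 ± 0.42 (SE), adjusted p = 0.0188 at day 2. The day 2 call was lost without day 2 library 2 or control 1, 2 or 3 (adjusted p up to 0.0768). Col7a1, the collagen of anchoring fibrils in skin, had 9.68, 31.2 and 27.1 CPM at day 6, 5.6, 13 and 9.17 CPM at day 2 and 3.94, 4.61 and 4.75 CPM in controls. Col7a1 rose at day 6 with 2.35 ± 0.44 (SE), adjusted p = 0.00954. Its day 2 value was 1.06 (adjusted p = 0.116). Among the transmembrane collagens 0 rose, and Col25a1 (chr3:130131501-130599877, plus strand), which neurons make, had 31.8, 38 and 38.9 CPM at day 6, 51.8, 53.6 and 47.9 CPM at day 2 and 41.1, 60.4 and 62.8 CPM in controls. It fell at day 6 with -0.60 ± 0.15 (SE), adjusted p = 0.0172. That call was lost without day 6 library 1 or 2 or control 2 or 3 (adjusted p up to 0.0846). The neuron markers given above fell at day 2 in 7 of 8 genes and at day 6 in 0 of 8.

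Between day 6 and day 2 in brain, 7 collagen genes were higher at day 6, against 5.3% of all genes, and 2 were lower, against 6.26%. The higher genes were Col11a2 with 1.57 (adjusted p = 7.92e-05), Col9a1 with 2.94 (adjusted p = 5.11e-04), Col9a3 with 1.14 (adjusted p = 0.00384), Col6a3 with 1.67 (adjusted p = 0.0194), Col10a1 with 7.16 (adjusted p = 0.0147), Col15a1 with 1.00 (adjusted p = 0.0349) and Col26a1 with 1.20 (adjusted p = 0.0312). Col16a1, with -0.72 (adjusted p = 0.0398), and Col25a1, with -0.50 (adjusted p = 0.0422), were lower. Col1a1, Col1a2 and Col3a1 had differences of 2.72 (adjusted p = 0.0577), 2.24 (adjusted p = 0.0746) and 2.37 (adjusted p = 0.083) and did not pass the test, although in Col1a1 and Col1a2 all libraries of day 6 lay above those of day 2. Without library 1 of day 6, 12 genes were higher; 4 were higher without library 3 of day 6 and 3 without library 1 or library 3 of day 2. Col11a2, Col9a1 and Col9a3 kept their calls without any 1 library. The 2 lower calls dropped to 1 without library 1 of day 2 or control 3 and to 0 without library 1 or 3 of day 6, library 2 or 3 of day 2 or control 2, where 2 to 4 collagen genes had an unadjusted p under 0.05 in that direction.

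Among the genes that process collagen, part of each list rose in brain and few fell, against the shares of all genes given above (7.93% higher at day 6 and 14.7% higher at day 2). Of 21 folding and hydroxylation genes, 10 rose at day 6 and 10 at day 2, and 0 fell, with medians of 0.66 and 0.37. P4hb, a subunit of prolyl 4-hydroxylase, had a log2 fold change of 0.75 (adjusted p = 0.00517) at day 6 and 1.25 (adjusted p = 7.45e-05) at day 2, and Plod1, a lysyl hydroxylase, 1.30 (adjusted p = 0.00247) and 1.25 (adjusted p = 0.00123) on the same days. Of 13 tested trimming and crosslinking genes 6 rose at day 6 and 7 at day 2. Lox, a lysyl oxidase, had 3.74 (adjusted p = 0.00573) at day 6 and 3.43 (adjusted p = 0.00381) at day 2. Loxl2, its relative, had 3.38 (adjusted p = 0.00502) at day 6 and 3.50 (adjusted p = 0.00178) at day 2, and Tgm2, a transglutaminase, 1.69 (adjusted p = 0.00427) and 2.93 (adjusted p = 7.08e-05).

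Of 14 tested fibril regulators 8 rose at day 6 and 0 fell, and 5 rose and 2 fell at day 2. Sparc, a collagen-binding matrix protein, rose with 1.25 (adjusted p = 0.00193) at day 6, and Lum, a small proteoglycan on fibrils, with 3.21 (adjusted p = 0.00257). Against the rest, Fmod fell at day 2 with -1.66 (adjusted p = 0.0147) and Omd with -1.60 (adjusted p = 0.023). Of 11 tested collagen receptors 6 rose at day 6 and 5 at day 2. Itgb1, the common chain of the collagen-binding integrins, had 0.91 (adjusted p = 0.00159) at day 6 and 1.26 (adjusted p = 6.77e-05) at day 2. Cd36, a scavenger receptor of macrophages and endothelium, had 5.88 (adjusted p = 0.00572) and 3.99 (adjusted p = 0.0129). Of 17 partners in the basement membrane 6 rose at day 6 and 7 at day 2. Nid1, which links laminin to type IV collagen, rose with 2.05 (adjusted p = 0.00369) at day 6 and 1.64 (adjusted p = 0.00511) at day 2.

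In skull, collagen genes changed in both directions at day 2 and mostly upwards at day 4. At day 4, 10 of 43 tested rose, against 5.83% of all genes, and 1 fell, against 4.79%, with medians of 0.26 and 0.02 for all genes. At day 2, 8 rose, against 17.8% of all genes, and 7 fell, against 16.6%, with medians of 0.00 and -0.01, so the shares at day 2 lay close to those of all genes. Both days were compared with the same controls. The calls at day 4 depended on skull control 3: without it, in edgeR's test, 0 genes were called higher and 0 lower, 13 had an unadjusted p under 0.05 in the higher direction, and over all genes the calls dropped to 5 higher and 5 lower. The 10 genes kept their direction there, with adjusted p between 0.0542 and 0.133. The count was 2 without library 3 of day 4 and 3 without library 2 of day 4, and the 1 lower call was lost without any 1 library of day 4, while 2 were lower without control 2. Of the 15 calls at day 2, 11 were kept without any 1 library.

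Of the fibrillar genes 5 of 11 rose at day 4, against 5.83% of all genes, and 0 fell, against 4.79%, with a median log2 fold change of 0.74. At day 2, 2 rose and 1 fell, near the 17.8% and 16.6% of all genes. Col1a1 had 46937, 69009.8 and 66444 CPM at day 4, 33874, 30863 and 25334 CPM at day 2 and 38388, 19876 and 31726 CPM in controls. Col1a2 had 56909.9, 79396 and 73499 CPM at day 4, 41574, 37712 and 31736 CPM at day 2 and 50264, 23596 and 39382 CPM in controls. The libraries of day 4 lay above all others in both, and control 2 was the lowest. Col1a1 rose at day 4 with 1.02 ± 0.25 (SE), adjusted p = 0.0318, and Col1a2 had 0.89 (adjusted p = 0.0546), which missed the threshold. The Col1a1 call was lost without day 4 library 2 or 3 or day 2 library 2 or control 3 (adjusted p up to 0.115), and without control 2 its value was 0.78 (adjusted p = 0.025). At day 2 the value was 0.0013 (adjusted p = 0.997) for Col1a1 and -0.03 (adjusted p = 0.942) for Col1a2.

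Col3a1 had 14238, 18466 and 14141 CPM at day 4, 18567, 16341 and 19115 CPM at day 2 and 17372, 12614 and 15004 CPM in controls. Its groups overlapped, with 0.06 (adjusted p = 0.848) at day 4 and 0.26 (adjusted p = 0.215) at day 2. Col5a1 had 1532, 2249 and 1910.4 CPM at day 4, 1868, 1671 and 1595 CPM at day 2 and 1413, 884 and 1223 CPM in controls. Col5a1 rose with 0.69 (adjusted p = 0.0428) at day 4 and 0.54 (adjusted p = 0.0447) at day 2. Col5a2 had 3508, 4984 and 4089 CPM at day 4, 3626, 3080.1 and 3287 CPM at day 2 and 3030.5, 1935 and 2543 CPM in controls. Col5a2 rose at day 4 with 0.74 (adjusted p = 0.0298). In both genes control 2 was the lowest library. Col5a3 had 129, 149 and 122 CPM at day 4, 176, 122 and 163 CPM at day 2 and 103, 125 and 106 CPM in controls. Library 2 of day 2 overlapped the controls, and Col5a3 was called higher at day 2 with 0.47 (adjusted p = 0.0296). The day 4 call was lost without day 4 library 2 or 3 or day 2 library 1, 2 or 3 or control 2 or 3 (adjusted p up to 0.136) for Col5a1. For Col5a2 it was lost without day 4 library 2 or 3 or control 3 (adjusted p up to 0.107). The day 2 call of Col5a1 was lost without day 4 library 3 or day 2 library 1, 2 or 3 or control 2 or 3 (adjusted p up to 0.125), and that of Col5a3 without day 2 library 1 or 3 or control 1 or 3 (adjusted p up to 0.105).

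Among the collagens known from cartilage, Col2a1 was lower at day 2 and both type XI chains were higher at day 4. Col2a1 (chr15:97975602-98004695, minus strand) had 35.3, 10.6 and 16.6 CPM at day 4, 3.59, 3.53 and 3.48 CPM at day 2 and 21.9, 15.6 and 20.4 CPM in controls. All 3 libraries of day 2 lay below all others, and it fell with -2.44 ± 0.41 (SE), adjusted p = 0.00264, and no left-out library ended that call. At day 4 Col2a1 had 0.12 (adjusted p = 0.877). Col11a1 had 972, 1720.2 and 1481 CPM at day 4, 849, 785 and 504 CPM at day 2 and 659, 383 and 531 CPM in controls. Col11a1 rose at day 4 with 1.41 (adjusted p = 0.0244). Col11a2 had 2197, 2862 and 2826 CPM at day 4, 794, 745 and 454 CPM at day 2 and 1407, 682 and 1130.0 CPM in controls. Col11a2 rose at day 4 with 1.29 (adjusted p = 0.031), with a day 2 value of -0.69 (adjusted p = 0.0982). These day 4 calls were lost without day 4 library 2 or 3 or control 3 (adjusted p up to 0.0899) for Col11a1 and without day 4 library 2 or 3 or control 3 (adjusted p up to 0.107) for Col11a2. Of 6 tested cartilage markers 0 were called at day 4 and 1 at day 2, and their sum was 211, 334 and 282 CPM at day 4, 166, 189 and 117 CPM at day 2 and 182, 103 and 149 CPM in controls. Of 10 tested osteoblast and osteocyte markers, 6 rose at day 4, and 3 rose and 2 fell at day 2. Their part in the collagen values was not tested.

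Type IV collagen rose in skull on both days in the same 2 genes that lie head to head. Col4a1 had 642, 827 and 696 CPM at day 4, 855, 873 and 924 CPM at day 2 and 364, 503 and 410.0 CPM in controls. Col4a2 had 380.1, 463 and 428 CPM at day 4, 445, 464 and 457 CPM at day 2 and 231, 259 and 241 CPM in controls. Each injured library lay above each control in both genes. Col4a1 rose with 0.76 ± 0.13 (SE), adjusted p = 0.0133 at day 4 and 1.05 ± 0.13 (SE), adjusted p = 5.09e-04 at day 2. Col4a2 rose with 0.80 ± 0.09 (SE), adjusted p = 0.00668 at day 4 and 0.90 ± 0.09 (SE), adjusted p = 1.77e-04 at day 2. The day 2 calls kept an adjusted p of at most 0.00516 for Col4a1 and 0.00246 for Col4a2 without any 1 library, and the day 4 calls were lost without day 4 library 3 or control 3 (adjusted p up to 0.0693) for Col4a1 and without control 3 (adjusted p up to 0.0542) for Col4a2. The other 4 type IV genes did not pass the test. Beside them at day 2, 0 of 10 endothelial markers rose and 3 fell, and 0 of 11 mural markers rose and 7 fell. At day 4, 0 of the endothelial markers were called, and 2 mural markers rose and 1 fell.

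Col4a3 in skull ranged over 2.47 to 5.0 CPM at day 4, 1.15 to 5.8 CPM at day 2 and 1.01 to 8.51 CPM in controls, and the groups overlapped. Col9a3 had 38.5, 23.4 and 12.2 CPM at day 4, 5.36, 90.5 and 19.1 CPM at day 2 and 4.91, 15.2 and 7.58 CPM in controls. Library 2 of day 2 stood apart, and the values of 1.42 (adjusted p = 0.424) at day 4 and 2.05 (adjusted p = 0.17) at day 2 did not pass the test. That library also had the highest sum of choroid plexus markers, and within each injured group Col9a3 followed the order of that sum. The part of choroid plexus RNA in these values was not tested.

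The main chains of type VI collagen did not pass the test in skull. Col6a1, Col6a2 and Col6a3 had log2 fold changes of 0.12, 0.19 and -0.29 at day 4 and 0.22, 0.13 and -0.02 at day 2. Col6a6 had 4.17, 5.61 and 3.58 CPM at day 4, 2.17, 2.6 and 3.02 CPM at day 2 and 6.39, 6.35 and 6.69 CPM in controls. Col6a6 fell at day 2 with -1.31 ± 0.23 (SE), adjusted p = 0.00241. Col8a2, a partner chain of Col8a1, had 343, 343 and 343 CPM at day 4, 199.8, 263 and 156 CPM at day 2 and 337, 294 and 323 CPM in controls. Col8a2 fell at day 2 with -0.63 ± 0.16 (SE), adjusted p = 0.0135. Col10a1 had 1.99, 4.7 and 1.56 CPM at day 4, 0.881, 1.4 and 0.789 CPM at day 2 and 0.269, 0.0676 and 0.137 CPM in controls, and was above all controls in each injured library. With 108 counts at day 4, 46 at day 2 and 7 in controls, the ratio to controls was 16.9 at day 4 with a counting interval of 7.91 to 42.9 and 6.48 at day 2 with an interval of 2.91 to 17.0 (95%, counting error only). The fitted log2 fold changes were 4.04 (adjusted p = 0.00924) at day 4 and 2.63 (adjusted p = 0.0121) at day 2. The day 4 call was lost without control 3 (adjusted p up to 0.0629).

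Among fibril-associated collagens in skull, Col12a1 (chr9:79598991-79718831, minus strand) had 2062, 2913 and 2329.8 CPM at day 4, 3865, 3930.3 and 3524 CPM at day 2 and 2138, 1957 and 1987 CPM in controls, with day 2 above all other libraries. It rose at day 2 with 0.90 ± 0.13 (SE), adjusted p = 8.95e-04, and its day 4 value was 0.26 (adjusted p = 0.209). Col14a1 had 265, 264 and 262 CPM at day 4, 149, 189 and 174 CPM at day 2 and 279, 282 and 279 CPM in controls, and day 2 lay below all other libraries, with a fall of -0.71 ± 0.09 (SE), adjusted p = 5.06e-04. Thus the 2 related chains moved in opposite directions at day 2. Col20a1 had 25.9, 19.7 and 17.1 CPM at day 4, 15.1, 15.6 and 15.6 CPM at day 2 and 20.5, 25.3 and 22.5 CPM in controls. Col20a1 fell at day 2 with -0.56 (adjusted p = 0.0199). That call was lost without day 2 library 1, 2 or 3 or control 2 or 3 (adjusted p up to 0.062). Col22a1, a collagen of muscle and tendon junctions, had 302, 415 and 403 CPM at day 4, 155, 148 and 106 CPM at day 2 and 242, 116 and 182 CPM in controls. Col22a1 rose at day 4 with 1.06 (adjusted p = 0.0439). The Col22a1 call was lost without day 4 library 2 or 3 or day 2 library 1 or 2 or control 3 (adjusted p up to 0.14). Control 2, the lowest of the controls in Col22a1, also had the lowest muscle marker sum among the controls. Across the libraries of day 2 the muscle sum had the reverse order of Col22a1. At day 4 library 1 had the lowest Col22a1 and the highest muscle sum. The part of muscle RNA was not tested. Col16a1 had 804, 1016 and 939 CPM at day 4, 639.7, 572 and 549 CPM at day 2 and 907, 536 and 781 CPM in controls, without a call against controls. Col19a1 had at most 0.33 CPM in any skull library and was not tested there.

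Col18a1 had 70.4, 97.7 and 84 CPM at day 4, 125, 112 and 138 CPM at day 2 and 34.8, 72 and 48.2 CPM in controls. Col18a1 rose at day 2 with 1.28 ± 0.24 (SE), adjusted p = 0.00514, while its day 4 value of 0.70 (adjusted p = 0.102) did not pass the test. Col15a1, the related basement membrane zone collagen, had 55.9, 70.4 and 59.9 CPM at day 4, 47.3, 44.8 and 43.2 CPM at day 2 and 35.5, 48 and 37.9 CPM in controls. Col15a1 rose at day 4 with 0.62 (adjusted p = 0.0199). The Col15a1 call was lost without day 4 library 2 or 3 or control 3 (adjusted p up to 0.088). Col28a1, known from peripheral nerve, had 9.81, 5.28 and 6.0 CPM at day 4, 11.9, 12.1 and 12.2 CPM at day 2 and 3.63, 5.2 and 3.69 CPM in controls. Col28a1 rose at day 2 with 1.53 ± 0.25 (SE), adjusted p = 0.00176. Of the transmembrane collagens, Col25a1 had 10, 12.9 and 11.1 CPM at day 4, 8.41, 6.13 and 6.71 CPM at day 2 and 34.5, 13.2 and 22.4 CPM in controls. It fell at day 2 with -1.72 ± 0.31 (SE), adjusted p = 0.00314, and its day 4 value was -1.04 (adjusted p = 0.0595). Col23a1 had 23.8, 21.8 and 23.9 CPM at day 4, 20.7, 28.4 and 32.2 CPM at day 2 and 33.1, 52.7 and 39.1 CPM in controls. Col23a1 fell with -0.85 (adjusted p = 0.0276) at day 4 and -0.62 (adjusted p = 0.0326) at day 2. The day 4 call was lost without day 4 library 1, 2 or 3 or control 3 (adjusted p up to 0.0982). At day 2 it was lost without day 4 library 3 or day 2 library 1 or 2 or control 2 or 3 (adjusted p up to 0.0999). Neuron markers in skull fell alongside in 7 of 8 genes at day 4 and 8 of 8 at day 2, with sums of 264, 163 and 210.2 CPM at day 4, 105, 205 and 184 CPM at day 2 and 1037, 581 and 875 CPM in controls. Across the controls Col25a1 had the order of the neuron sum and Col23a1 the reverse order. Within each injured group Col25a1 had the reverse order of that sum. The part of neuron RNA in the Col25a1 and Col23a1 values was not tested.

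**Figure D4:**
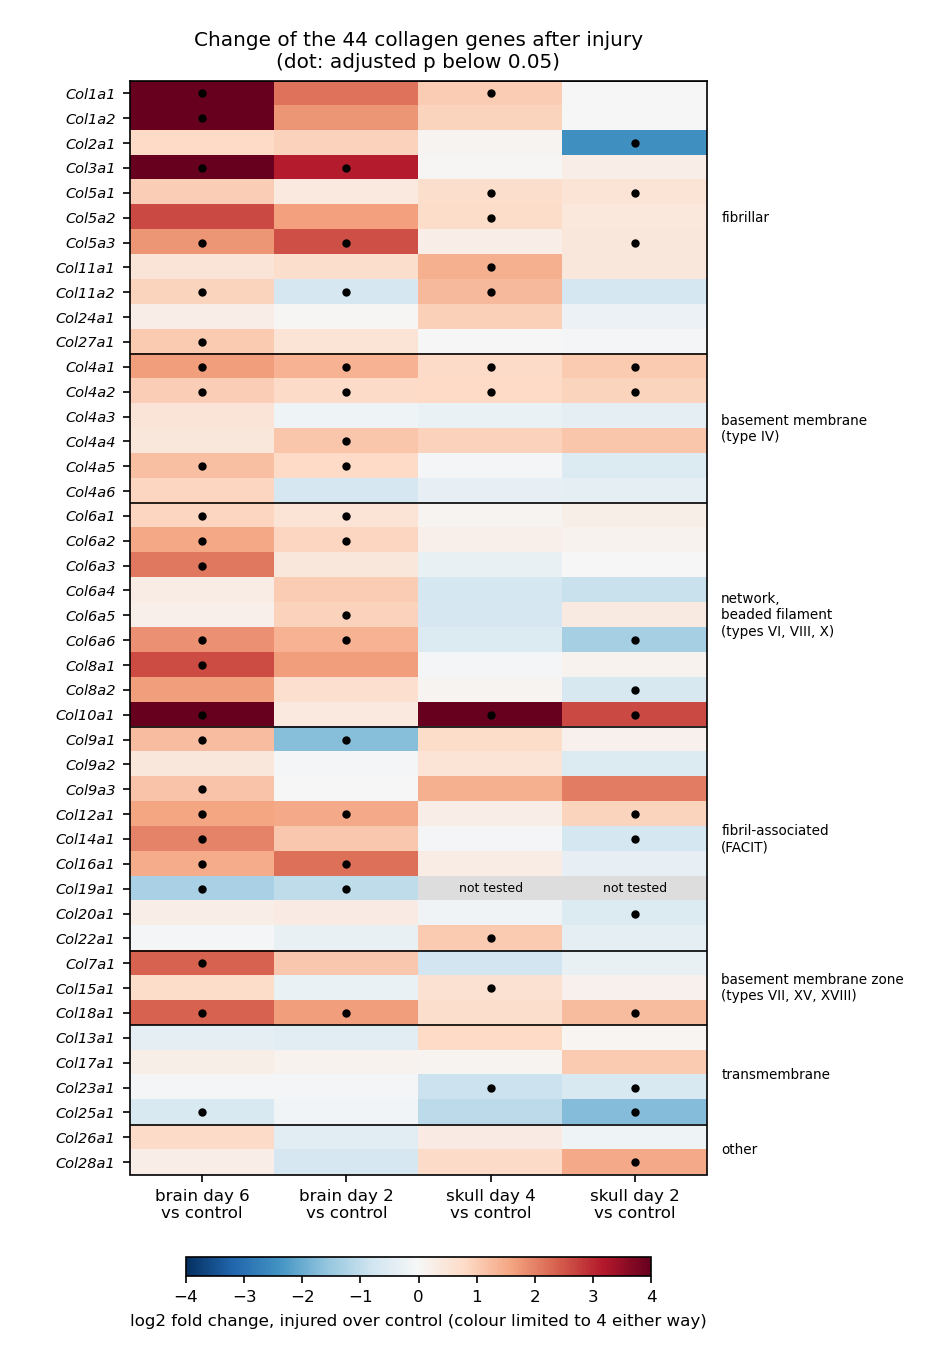
Log2 fold change of each of the 44 collagen genes (rows, by class) in 4 comparisons of an injured group with its control (columns), as colour limited to 4 either way; a dot marks an adjusted p below 0.05. The brain day 6 column holds 22 dots on rises, skull day 2 holds 8 on rises and 7 on falls, and Col4a1 and Col4a2 carry a dot in every column.

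Between day 4 and day 2 in skull, 12 collagen genes were higher at day 4, against 10.6% of all genes, and 2 were lower, against 11.1%. Of the fibrillar genes 6 of 11 were higher: Col2a1 with 2.56 (adjusted p = 0.00404), Col11a2 with 1.98 (adjusted p = 0.00331), Col24a1, a fibrillar collagen of developing bone, with 1.20 (adjusted p = 0.0139), Col1a1 with 1.02 (adjusted p = 0.0175), Col1a2 with 0.92 (adjusted p = 0.0306) and Col11a1 with 0.96 (adjusted p = 0.0453). The others were Col22a1 with 1.46 (adjusted p = 0.00814), Col8a2 with 0.73 (adjusted p = 0.0106), Col14a1 with 0.63 (adjusted p = 0.00166), Col16a1 with 0.65 (adjusted p = 0.0283), Col6a6 with 0.77 (adjusted p = 0.0407) and Col15a1 with 0.46 (adjusted p = 0.0274). Col12a1 was lower with -0.63 (adjusted p = 0.00792), and Col28a1 with -0.77 (adjusted p = 0.0496). The count of higher genes was 6 without library 2 of day 4, library 2 or library 3 of day 2, and 7 without library 3 of day 4 or library 1 of day 2. The calls of Col2a1, Col11a2, Col8a2, Col12a1, Col14a1 and Col22a1 were kept without any 1 library, and lower calls numbered 4 without control 2 and 1 without library 2 or 3 of day 4, library 1 or 3 of day 2 or control 3.

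In skull, most genes that fold and hydroxylate collagen rose at day 2, when Col1a1 and Col1a2 did not pass the test. Of 21 folding and hydroxylation genes 3 rose at day 4 and 17 at day 2, and 0 fell, with medians of 0.30 and 0.55. Between the days 6 were lower at day 4. P4hb had 0.41 (adjusted p = 0.0669) at day 4 and 1.19 (adjusted p = 2.69e-04) at day 2. P4ha1, the catalytic subunit of prolyl 4-hydroxylase, had 0.36 (adjusted p = 0.117) and 1.24 (adjusted p = 2.84e-04), and Plod2, a lysyl hydroxylase of collagen ends, 0.61 (adjusted p = 0.0264) and 1.33 (adjusted p = 2.29e-04). Over all genes 5.83% rose and 4.79% fell at day 4, and 17.8% rose and 16.6% fell at day 2, and at day 2 the counts of receptors and basement membrane partners lay near these shares. Of 13 trimming and crosslinking genes 4 rose and 1 fell at day 4, and 5 rose and 3 fell at day 2. Lox had 0.97 (adjusted p = 0.0183) at day 4 and 2.30 (adjusted p = 1.14e-04) at day 2, while Tll1, a procollagen protease, fell with -1.26 (adjusted p = 0.0146) and -0.96 (adjusted p = 0.00923). Of 15 fibril regulators 3 rose and 0 fell at day 4, and 2 rose and 6 fell at day 2. Fn1, or fibronectin, had 0.75 (adjusted p = 0.0191) and 1.40 (adjusted p = 2.67e-04). Prelp, a small proteoglycan, had -1.37 (adjusted p = 0.00178) on day 2. Of 13 receptors 6 rose and 1 fell at day 4, and 4 rose and 3 fell at day 2, the falls including Cd36 with -1.26 (adjusted p = 0.0269) and -1.27 (adjusted p = 0.00804). Of 17 basement membrane partners 4 rose and 2 fell at day 4, and 5 rose and 4 fell at day 2. Lamb1, a laminin chain, had 1.12 (adjusted p = 6.18e-04) and Lama2, the laminin chain of muscle, -1.24 (adjusted p = 9.78e-05) on day 2.

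The day 2 responses of brain and skull were compared directly as an interaction. The difference is the log2 fold change in brain minus that in skull, so its sign does not say in which tissue the change was larger. Of 44 collagen genes 11 had a positive difference that passed the test, against 14% of all genes, and 2 a negative one, against 3.6%, with a median difference of 0.56 for the collagen genes and 0.20 for all genes. Col3a1 differed by 2.92 ± 0.46 (SE), adjusted p = 0.00172, Col16a1 by 2.60 ± 0.29 (SE), adjusted p = 1.81e-04 and Col5a3 by 2.15 ± 0.32 (SE), adjusted p = 0.00113. Col2a1 differed by 3.42 (adjusted p = 0.00203) and Col6a6 by 2.75 (adjusted p = 3.19e-04), both with a fall in skull. Relative to the median of all genes these differences are smaller by 0.20. Col25a1 differed by 1.68 (adjusted p = 0.0208), with -0.10 in brain and a fall of -1.72 in skull. The 2 genes with a negative difference were Col9a1, which fell in brain with -1.72 and had 0.16 in skull, and Col28a1, which rose in skull with 1.53 and had -0.68 in brain. For Col4a1 and Col4a2, called in both tissues, the differences of 0.38 (adjusted p = 0.315) and -0.09 (adjusted p = 0.794) did not pass the test, which does not show that the responses were alike. Without brain control 3 the count of positive differences was 7.

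Chains of 1 molecule were compared per transcript length in each library, as a description without a test. Col3a1 and Col1a1, which belong to different collagens, were compared in the same way. The ratio of Col1a1 to Col1a2 was 0.807, 0.834 and 0.901 at day 6, 0.506, 0.68 and 0.581 at day 2 and 0.461, 0.45 and 0.498 in controls of brain. In skull it was 0.744, 0.784 and 0.815 at day 4, 0.735, 0.738 and 0.72 at day 2 and 0.689, 0.76 and 0.727 in controls. The type I molecule holds more Col1a1 than Col1a2 chains. The brain ratio was highest at day 6 with no overlap with the other groups, while in skull the controls overlapped both injured groups. The ratio of Col3a1 to Col1a1 was 0.323, 0.285 and 0.227 at day 4, 0.584, 0.564 and 0.804 at day 2 and 0.482, 0.676 and 0.504 in controls of skull, so that day 4 lay below all other libraries. In brain it was 0.921, 1.19 and 1.02 at day 6, 1.69, 1.27 and 1.47 at day 2 and 0.647, 0.687 and 0.846 in controls, highest at day 2. For the head-to-head genes the ratio of Col4a1 to Col4a2 was 1.18, 1.45 and 1.31 at day 6, 1.21, 1.27 and 1.35 at day 2 and 1.04, 0.742 and 0.737 in controls of brain. In skull it was 1.65, 1.74 and 1.59 at day 4, 1.87, 1.84 and 1.97 at day 2 and 1.54, 1.89 and 1.66 in controls. Each injured brain library lay above each brain control. The ratio of Col5a1 to Col5a2 was higher in each brain control than in each injured brain library. It was 2.13, 0.771 and 0.98 at day 6, 1.68, 1.07 and 1.33 at day 2 and 2.75, 3.21 and 4.36 in controls.

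**Figure D5:**
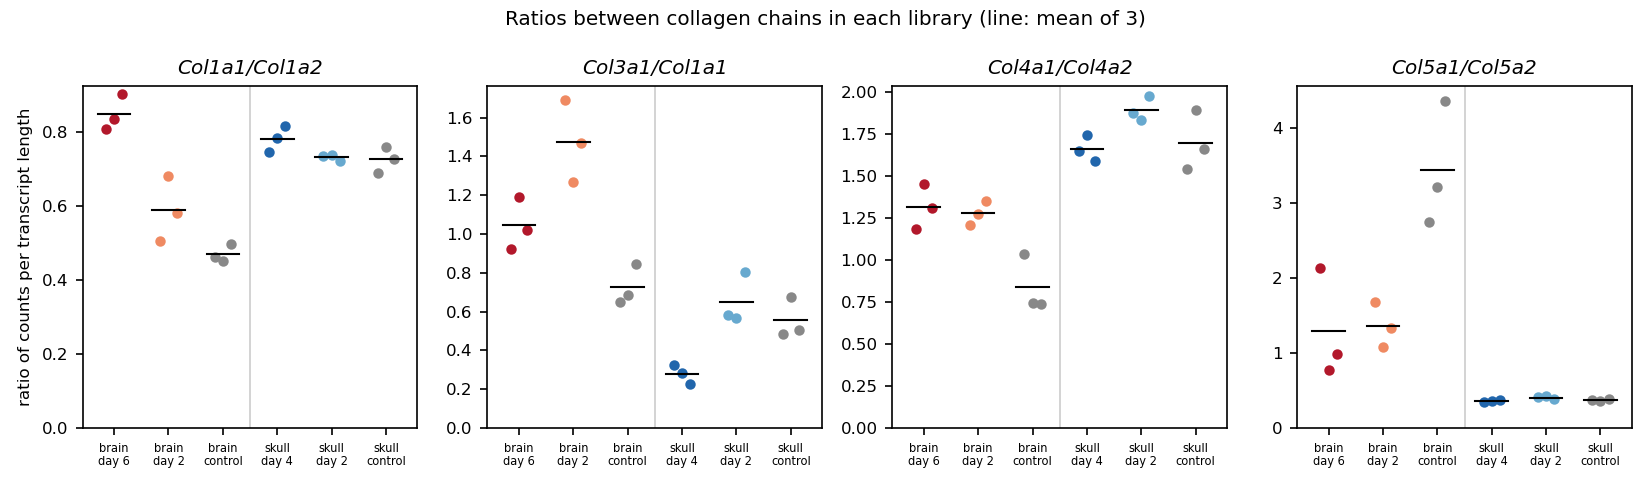
Ratio of read counts per transcript length between chain pairs (y axis) in each library by group (x axis); points are libraries, black lines are group means of 3. Col1a1/Col1a2 is highest in brain at day 6 (0.807 to 0.901, against 0.450 to 0.498 in brain controls), and Col3a1/Col1a1 in skull is lowest at day 4.

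The remaining collagen genes gave no call against controls in either tissue. They numbered 8: Col13a1, Col17a1, Col24a1, Col26a1, Col4a3, Col4a6, Col6a4 and Col9a2. Col13a1, a transmembrane collagen of the neuromuscular junction, had 114, 159.9 and 154 CPM at day 4, 93.5, 88.1 and 77.3 CPM at day 2 and 109, 47.7 and 90.9 CPM in controls of skull. Col24a1 had 122, 207 and 190.2 CPM at day 4, 93.3, 72.5 and 59.8 CPM at day 2 and 108, 66.1 and 93.5 CPM in controls of skull. Both were highest at day 4. Their day 4 values were 0.79 (adjusted p = 0.103) for Col13a1 and 0.96 (adjusted p = 0.0509) for Col24a1. Col17a1, Col4a6 and Col6a4 stayed under 3 CPM in every library of both tissues, and Col9a2 and Col26a1 under 15 CPM. Of the genes called in brain alone, Col7a1 in skull had -0.77 (adjusted p = 0.377) at day 4 and -0.29 (adjusted p = 0.694) at day 2, Col8a1 -0.05 (adjusted p = 0.929) and 0.13 (adjusted p = 0.715), Col9a1 0.73 (adjusted p = 0.167) and 0.16 (adjusted p = 0.724), and Col27a1 0.01 (adjusted p = 0.97) and -0.08 (adjusted p = 0.57). Of those called in skull alone, Col8a2 in brain had 1.66 (adjusted p = 0.234) at day 6 and 0.68 (adjusted p = 0.599) at day 2, Col15a1 0.73 (adjusted p = 0.114) and -0.27 (adjusted p = 0.549), Col22a1 -0.09 (adjusted p = 0.934) and -0.31 (adjusted p = 0.698), and Col28a1 0.26 (adjusted p = 0.736) and -0.68 (adjusted p = 0.236). A call in 1 tissue and none in the other is no test of a difference.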

How the data were processed

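Polyadenylated RNA was sequenced as paired reads, and the authors deposited 1 table of read counts per gene for the 18 libraries. Reads were aligned with HISAT2 2.1.0 to mm10, per the submitters' processing notes; which program counted the reads, with which gene models and strand rule, is not stated there. The table had 26783 lines for 25918 gene names, and 865 surplus identical copies were dropped. Column names were matched to sample titles. Total counts per library lay between 13005050 and 27654269, which limits the precision of genes with few counts.

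Counts were tested with edgeR 4.0.16 (R 4.3.3, limma 3.58.1): TMM scaling, genes kept by filterByExpr by group, robust quasi-likelihood fits without a replicate block, Benjamini-Hochberg adjustment over all genes tested and a threshold of 0.05. Brain and skull were fitted apart, each with its 3 groups; the day 2 interaction used 12 libraries and the control comparison 6. Fitted log2 fold changes used a prior count of 0.125, and a standard error is the log2 fold change over the root of its F value. Levels are CPM with TMM scaling within a tissue. Values per length use the APPRIS principal transcript of GENCODE M21. Promoters are from RefSeq. Counting intervals are exact and cover counting error only. Scripts were tested on simulated data. All collagen genes are members. Values in every library are given for members called against a control that reached an average of 5 CPM in whichever group was higher, and for Col1a1, Col1a2, Col2a1, Col3a1, Col4a1 and Col4a2, and, chosen after values were seen, for Col5a1 and Col5a2 in brain and Col9a3, Col10a1, Col13a1, Col16a1 and Col24a1 in skull. From companion lists, up to 4 genes with the smallest adjusted p per comparison and those against the rest could be named. The members and lists were chosen with earlier results of these data known. Alternatives were DESeq2 1.42.0, RLE factors, no filter, a stricter filter (1 CPM in 3 libraries), a replicate block and leaving out each library.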

Additional observations from a re-analysis of the deposited data

Results flagged for a closer look

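The day 2 response, the log2 fold change against controls, differed between brain and skull beyond the threshold of edgeR's interaction test in 13 collagen genes. A difference is brain minus skull, and the median over all genes was 0.20. Among fibrillar genes it was 2.22 for Col1a1 (adjusted p = 0.0272), 1.86 for Col1a2 (adjusted p = 0.0369), 3.42 for Col2a1 (adjusted p = 0.00203), 2.92 for Col3a1 (adjusted p = 0.00172) and 2.15 for Col5a3 (adjusted p = 0.00113). It was 1.39 for Col4a5 (adjusted p = 0.0327) of basement membranes and 2.75 for Col6a6 (adjusted p = 3.19e-04) of the type VI family. Among fibril-associated genes it was 1.85 for Col14a1 (adjusted p = 0.0120), 2.60 for Col16a1 (adjusted p = 1.81e-04) and 0.94 for Col20a1 (adjusted p = 0.0206), and -1.82 for Col9a1 (adjusted p = 0.0141). Col25a1 had 1.68 (adjusted p = 0.0208) and Col28a1 -2.16 (adjusted p = 0.00246).

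Behind these differences, Col6a6 rose in brain with 1.39 and fell in skull with -1.31, while Col16a1 rose in brain with 2.20 and had -0.34 in skull, which did not pass the test. In Col2a1, Col14a1, Col20a1 and Col25a1 the only day 2 call within a tissue was a fall in skull, and in Col9a1 it was a fall in brain. In Col3a1 and Col4a5 it was a rise in brain, and Col5a3 rose in both tissues. Col1a1 and Col1a2 were called in neither tissue at day 2. Col28a1 rose in skull with 1.53 and had -0.68 in brain, which did not pass the test. Over all genes, 14% had a positive difference that passed the test. Among markers this held for 8 of 8 macrophage and microglia, 8 of 10 endothelial, 6 of 11 mural, 5 of 14 fibroblast and meninges and 4 of 8 neuron genes. It also held for 2 of 8 neutrophil, 1 of 10 osteoblast and osteocyte and 1 of 7 choroid plexus markers. For cartilage, skeletal muscle and erythroid markers the count was 0, and 2 osteoblast and osteocyte markers had a negative difference that passed. The part of these cells in the collagen differences was not tested. The calls of Col1a1, Col1a2, Col4a5, Col20a1 and Col25a1 were lost when 1 library or another was left out, and the other 8 were kept.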

How the results depend on the processing

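Over all alternatives run, 4484 values of single collagen genes kept their side of the threshold, 96 passed it newly and 276 lost it, and no called value changed sign; uncalled values that changed sign are counted as kept. Counts of called genes moved by over 1.5 times as follows. With no filter on low counts, rises in brain at day 2 were 8, genes lower at day 6 than day 2 in brain were 1, genes lower at day 4 than day 2 in skull were 1, and genes higher in brain than skull controls were 1. With DESeq2, 12 genes were higher at day 6 than day 2 in brain, 2 fell in skull at day 4, and 4 were lower at day 4 than day 2 in skull. With RLE factors or the stricter filter genes lower at day 4 than day 2 in skull were 1. With the replicate block, rises in skull at day 4 were 4, genes lower at day 4 than day 2 in skull were 1, and genes higher in brain than skull controls were 1. Whether replicate numbers pair libraries across groups is not stated in the labels. Correlations between libraries of different groups used log CPM less the mean of each group. Same-numbered libraries correlated with -0.0408 to 0.233 in brain, with 3 of 9 pairs over 0.1, and -0.464 to 0.156 in skull, with 4 of 9 over 0.1. Differently numbered libraries had -0.303 to 0.137 in brain, with 2 of 18 over 0.1, and -0.224 to 0.345 in skull, with 7 of 18. These values do not settle whether the numbers mark a pairing.

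With 1 library left out at a time, brain at day 2 had 5 to 19 rises and 3 to 3 falls, and at day 6 had 12 to 23 rises and 1 to 2 falls. Day 6 against day 2 had 3 to 12 higher and 0 to 2 lower. Skull at day 2 had 6 to 8 rises and 5 to 9 falls, and at day 4 had 0 to 12 rises and 0 to 2 falls. Day 4 against day 2 had 6 to 15 higher and 1 to 4 lower. The interaction had 7 to 14 higher and 2 to 2 lower, and the controls 1 to 3 higher and 31 to 34 lower. Where a count was 0, 2 to 4 genes had an unadjusted p under 0.05 among the falls, and 13 among the rises in skull at day 4 without control 3. The cause of these shifts was not tested. With 3 libraries a group, low-count genes such as Col10a1 are limited by depth.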
